A study of Triticum aestivum with 16 samples.

Results

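This report describes 121 probe sets whose transcript levels in wheat flag leaves were highest in the line SB165 and lowest in the line SB80. They were chosen from 61115 probe sets on an Affymetrix wheat array by their own values. Each was at 3.5 or more on the log2 scale on all 16 arrays, both SB165 arrays were above the other 14 arrays, and both SB80 arrays were below the other 14. The mean of SB165 minus the mean of SB80 was at least 1.5, and probe sets paired with 6 genes were left out (LOC543292, LOC542997, LOC542773, LOC542774, LOC780687 and LOC780575). The 121 probe sets were 0.535% of the 22602 that reached 3.5 on every array, which are called bright below.

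The groups were 8 recombinant inbred lines of bread wheat (Triticum aestivum) with Seri M82 and Babax as parents, named SB165, SB15, SB33, SB53, SB138, SB146, SB189 and SB80. A recombinant inbred line is a nearly homozygous line derived from 1 plant of a cross, and each carries its own mixture of the parental alleles. All lines were grown in an irrigated field in 2007 and their flag leaves were taken 6 to 8 days after anthesis, the opening of the flowers. Each line had 2 field replicates, labelled biological, with 1 array each. Where a probe set is given 2 levels in a line below, field replicate 2 comes first and field replicate 1 second. No parent was among the 16 arrays, no treatment separated the lines, and the labels give no carbohydrate level or class for any line.

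The flag leaf is the last leaf of a wheat shoot and a main source of sugar for the filling grain. Wheat also stores water soluble carbohydrate, largely sucrose and fructan, in its vegetative tissues and draws on it later, and the series title names genotypic differences in this metabolism as its subject. A level measured in whole leaves cannot tell fewer cells of a type from less RNA per cell.

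The tissue label was checked against genes of the photosynthetic machinery. The probe set Ta.24976.1.S1_x_at of rbcL, which encodes the large subunit of Rubisco, lay between 16.45 and 16.67 over the 16 arrays. PsbO and PsbP, proteins of the oxygen-evolving side of photosystem II, lay between 14.62 and 15.02 (Ta.841.1.S1_a_at) and between 14.87 and 15.07 (Ta.85.1.S1_at). Of the 31 probe sets of these 3 genes 14 were bright, and several of the rbcL probe sets lay at the lowest value of the table, 2.25. No annotated probe set matched the gliadin, glutenin and puroindoline terms used for grain. The anther and pollen terms matched 2 probe sets of 1 profilin gene, LOC543315, which lay between 13.22 and 14.44 over the 16 arrays, with SB165 minus SB80 at -0.0042 and -0.015. None of these probe sets was a member. Bright probe sets had line medians between 7.62 and 7.70.

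SB165 minus SB80 had a median of 2.66 over the 121 probe sets, which is a 6.31-fold difference, with quartiles of 2.05 and 3.36 and a range of 1.53 to 6.32. It was 2 or more in 94 of them, 3 or more in 47 and 4 or more in 11. Over all bright probe sets the median of the same difference was 0.01, and 366 of them (1.62%) had a difference of 1.5 or more, against 60 with 1.5 or more in the other direction. These values chose the members, so they are a description with no test. The same order at any size of difference was met by 205 bright probe sets. Just inside the limit lay Ta.15190.1.S1_at, Ta.22556.1.S1_x_at and Ta.11660.1.S1_x_at at 1.53, 1.54 and 1.58. Just outside it lay Ta.11185.1.A1_at, Ta.1454.3.S1_at and Ta.4674.1.S1_s_at at 1.44, 1.43 and 1.42.

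**Figure D1:**
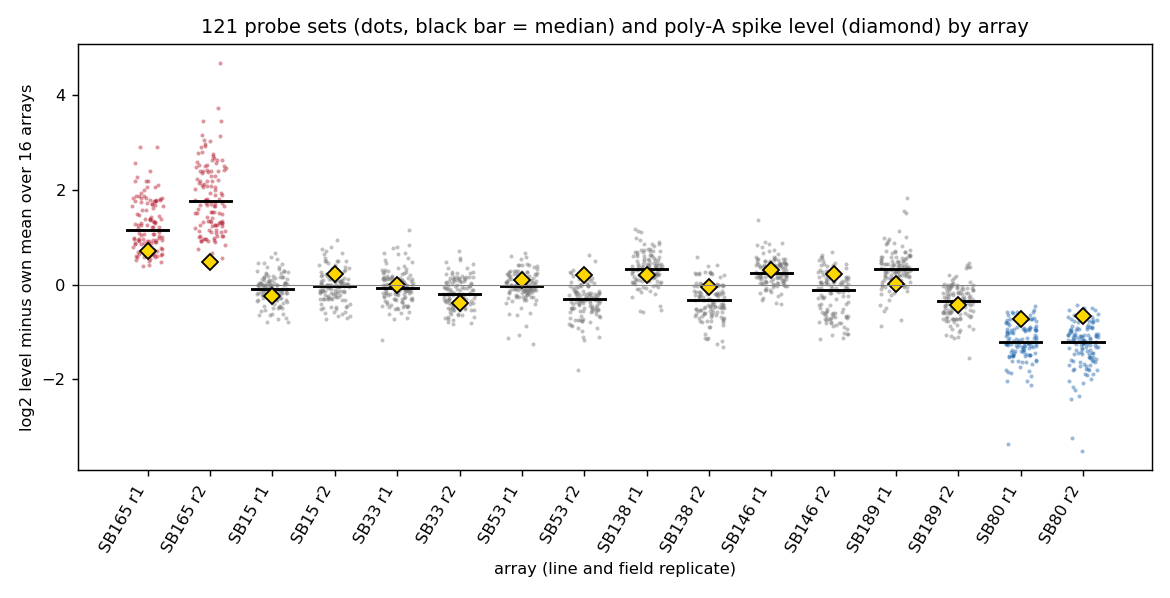
The vertical axis gives the log2 level of each of the 121 probe sets minus its own mean over the 16 arrays, the dots are probe sets, the black bars their medians and the diamonds the mean poly-A spike level on the same scale. The medians were 1.78 in replicate 2 and 1.16 in replicate 1 of SB165, and -1.21 and -1.20 in the same order in SB80. Those of the other 12 arrays lay between -0.34 and 0.33.

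The same rule was applied to each of the other 55 ordered pairs of lines, to show how many probe sets have any 1 line highest and any other lowest. Those pairs gave 0 to 15 probe sets each, with a median of 1, and the most numerous was SB146 highest with SB80 lowest, at 15. The reverse order, with SB80 highest and SB165 lowest, held 2. SB165 was highest with some line other than SB80 lowest in 11 probe sets, and SB80 was lowest with some line other than SB165 highest in 32. The pairs share arrays, so their counts are not independent of each other.

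**Figure D2:**
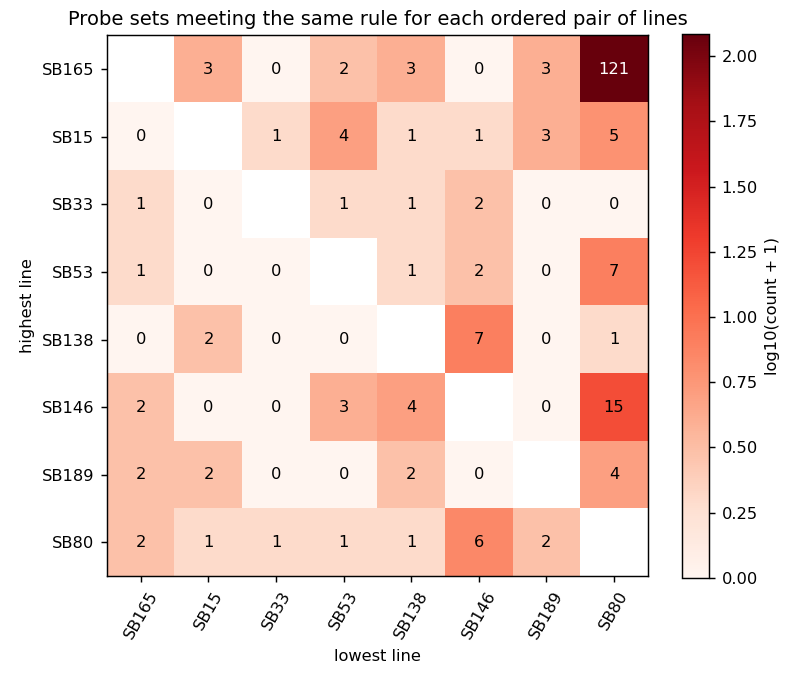
Each cell gives the number of probe sets that meet the rule with the row's line highest and the column's line lowest, and the colour is log10 of that number plus 1. The cell for SB165 over SB80 holds 121, and the other 55 cells hold between 0 and 15.

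The probe set with the largest difference was Ta.22615.1.S1_at, which is paired with no gene. Its levels were 10.77 and 9.90 in SB165, against 4.08 and 3.95 in SB80, and the other 12 arrays lay at 6.28, 7.20 and 8.88 (lowest, median and highest). The 12 arrays thus stood in a wide band well clear of both lines, and the difference of 6.32 is a fold of 79.8. Ta.5385.1.S1_at, paired with LOC543313, read 11.11 and 10.29 in SB165 and 3.86 and 5.26 in SB80, with 5.83, 7.33 and 8.52 in the 12 others. Its difference was 6.14, or 70.4-fold, and the SB80 mean of 4.56 had an SD of 0.99 (n = 2). Ta.14903.1.S1_at read 11.02 and 9.26 in SB165 and 4.18 and 4.32 in SB80, with 4.54, 5.88 and 8.18 in the 12 others, so SB80 stood only just below the lowest of them.

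TaAffx.108556.1.S1_at and TaAffx.108556.1.S1_x_at share a name stem, which on this array means that they were designed on the same cluster of sequences, so they are not separate evidence. They read 10.17 and 9.43 (S1_at) and 12.61 and 11.63 (S1_x_at) in SB165, against 4.61 and 4.99 and 7.08 and 7.51 in SB80. The fold between the lines was 32.0 and 28.4. TaAffx.15327.1.S1_at read 13.58 and 12.73 in SB165 and 8.50 and 8.79 in SB80, with 9.43, 10.50 and 11.50 in the 12 others, a difference of 4.51. In these 6 probe sets the lower SB165 array was between 1.02 and 1.77 above the highest of the 12 others.

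Of the 121 probe sets, 10 are paired with a gene in the array's annotation, and they stand for 8 genes. All 8 genes were found in the RefSeq gene table (IWGSC CS RefSeq v2.1), and that table gives none of them a name or synonym beyond a locus number, so no role is given here. The 8 genes lie on 7 chromosomes, and the nearest pair on 1 chromosome has 375 genes between them. Among the 742 bright probe sets with a gene, 1.35% are members, against 0.535% of all bright probe sets. The other 111 are known only by their probe set names.

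Of the 8, LOC543313 had the largest difference and was described above. LOC100125708 (Ta.27338.1.S1_at) read 10.23 and 9.06 in SB165 and 5.51 and 5.19 in SB80, with 5.65, 6.53 and 7.28 in the 12 others (lowest, median and highest). The 12 others were nearer to SB80, and the difference was 4.29. LOC543330 (Ta.28.1.S1_at) read 11.65 and 10.48 in SB165 and 6.73 and 7.16 in SB80, with 7.45, 8.55 and 9.62 in the 12 others, a difference of 4.12. Its 12 other arrays spread over more than 2 units, with the highest in SB189.

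LOC543422 is represented by 3 members, the most of any of the 8 genes. Ta.278.1.S1_at read 14.96 and 14.36 in SB165 and 10.77 and 11.10 in SB80, and Ta.278.1.S1_x_at read 15.03 and 14.29 in SB165 and 10.94 and 10.99 in SB80. These differ by 3.73 and 3.69 between the lines. Ta.62.1.S1_x_at read 15.79 and 15.48 in SB165 and 13.28 and 13.54 in SB80, a difference of 2.23. The rule fixed that all 3 probe sets order the lines alike at the ends. Ta.278.1.S1_at and Ta.278.1.S1_x_at share a name stem, so they are not separate evidence. The brightest of the 3 had the smallest difference. Ta.62.1.S1_x_at was the brightest member, with an SB165 mean of 15.64 ± 0.22 and an SB80 mean of 13.41 ± 0.18 (SD, n = 2).

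LOC543342 is the 1 gene of the 8 that the annotation also pairs with a probe set that did not meet the rule. Ta.27762.1.S1_x_at read 11.79 and 11.08 in SB165 and 8.07 and 7.54 in SB80, with 8.65, 9.25 and 10.29 in the 12 others, and differed by 3.63. Ta.27762.1.S2_at read 7.04 and 6.65 in SB165 and 6.22 and 6.83 in SB80, with 6.36, 6.85 and 6.96 in the 12 others, and differed by 0.32. In Ta.27762.1.S2_at 1 array of SB165 and 1 of SB80 lay within the range of the 12 others, so the lines were not set apart. The x in a probe set name marks probes that can also bind other transcripts, so the 2 probe sets of the gene need not read the same RNA.

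LOC543317 (Ta.959.1.S1_at) read 13.67 and 12.91 in SB165 and 10.15 and 9.93 in SB80, with 10.36, 11.09 and 11.82 in the 12 others, and differed by 3.25. Ta.959.2.S1_at, which shares its name stem but is paired with no gene, read 12.81 and 12.96 in SB165 and 12.80 and 12.77 in SB80 and differed by only 0.10. LOC542826 (Ta.18203.1.S1_at) read 10.11 and 9.09 in SB165 and 6.59 and 6.77 in SB80, with 7.55, 7.90 and 8.66 in the 12 others, and differed by 2.92. LOC543453 (Ta.27506.1.S1_at) read 8.84 and 7.96 in SB165 and 6.30 and 6.31 in SB80, with 6.35, 6.78 and 7.93 in the 12 others, and differed by 2.09. In LOC543453 the 2 ends of the order were close to the rest, since the lower SB165 array read 7.96 and the higher SB146 array 7.93.

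**Figure D3:**
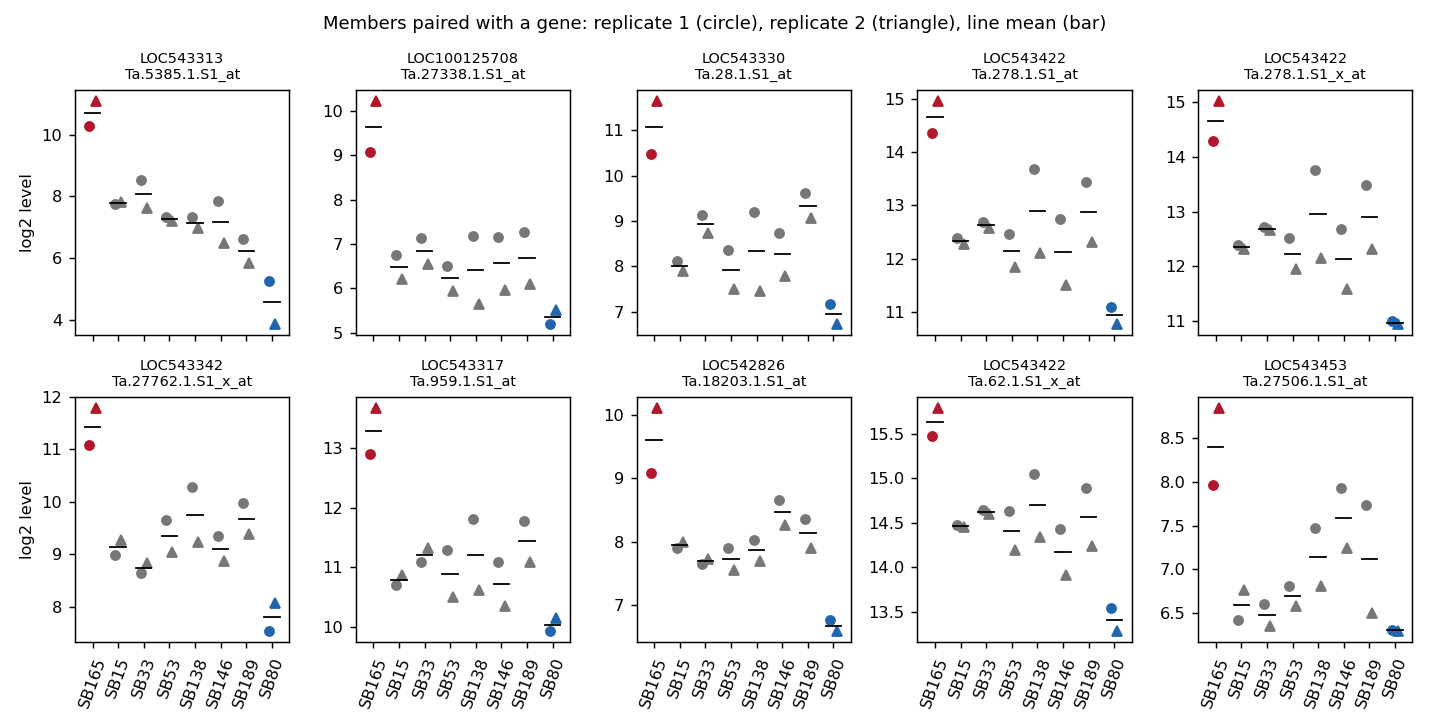
Each panel gives the log2 level of 1 of the 10 probe sets paired with a gene, by line, with a circle for field replicate 1, a triangle for field replicate 2 and a bar for the line mean. SB165 is highest and SB80 lowest in every panel by the rule, and replicate 2 is above replicate 1 in SB165 and below it in SB138, SB146 and SB189 in all 10 panels.

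Of the genes left out of the set, PR5 and XIP-I met the rest of the rule with 3 probe sets. PR5 (LOC543292) belongs to the thaumatin-like family of pathogenesis-related proteins, and XIP-I (LOC542997) is an inhibitor of microbial xylanases. PR5 (Ta.24501.1.S1_at) read 14.62 and 14.33 in SB165 and 12.31 and 12.70 in SB80, a difference of 1.97. XIP-I read 8.84 and 8.69 (Ta.1200.1.S1_at) in SB165 and 6.86 and 6.80 in SB80, a difference of 1.93, and its Ta.1200.1.S1_x_at differed by 2.17. Among the annotated probe sets that the lists of defence, stress, sucrose and fructan, transport, protein turnover, nitrogen, hormone and regulatory terms found, no probe set was a member. Those lists matched few annotated probe sets, 4 for defence and 3 each for transport and protein turnover and none for the others.

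The members were placed between the 2 lines by a position, 0 at the SB80 mean and 1 at the SB165 mean. The rule put the other lines between the 2, so these positions are a description with no test. The median positions were 0.415 in SB15, 0.398 in SB33, 0.373 in SB53, 0.436 in SB138, 0.455 in SB146 and 0.457 in SB189. All 6 lines lay between 0.2 and 0.8 in 90 of the 121 probe sets. At least 1 line was over 0.8 in 8 probe sets, and at least 1 was under 0.2 in 23. The step of SB165 above the mean of the 6 lines had a median of 1.54, against 1.13 for the step of that mean above SB80, and the upper step was the larger in 92.

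When the 8 line means of a probe set were put in order, the largest gap lay just below SB165 in 88 probe sets. It lay just above SB80 in 31 and elsewhere in 2. The rule set SB165 and SB80 at the ends, at least 1.5 apart, so the gaps and spans given here are a description. In 44 probe sets the largest gap was at least 50% of the whole difference. SB146 was the highest of the 6 lines in 46 probe sets, SB138 in 21, SB189 in 20, SB15 in 14, SB33 in 13 and SB53 in 7. SB33 was the lowest of the 6 in 30, SB53 in 27 and SB138 in 10. The 6 line means of a member spanned a median of 0.66, against 0.34 over all bright probe sets, and in 114 members that span was under 50% of the difference between SB165 and SB80.

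**Figure D4:**
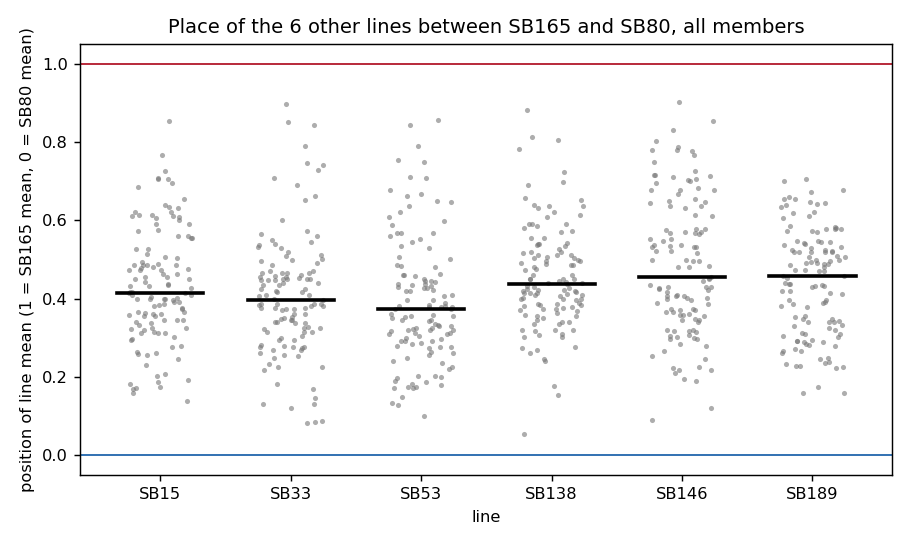
The vertical axis gives the position of a line mean, from 0 at the SB80 mean to 1 at the SB165 mean, for each of the 121 probe sets (dots) in the 6 other lines, with bars at the medians. The medians run from 0.373 in SB53 to 0.457 in SB189.

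Whether the members differed among the 6 lines that the rule did not single out was tested with limma on their 12 arrays. The rule used of these arrays only that they lie between the 2 lines. A line effect passed the test in 1 of the 121 probe sets (0.826%), against 1.61% of all probe sets and 2.54% of bright ones (Benjamini-Hochberg over 61115 probe sets, threshold 0.05). At an unadjusted F p under 0.05 there were 14 members (11.6%), against 18.6% of bright probe sets. On the deposited scale the members passed no more often than the background, and the part of the rule's limit in this was not tested. This did not hold after subtraction of the poly-A spike level, described at the end, where the test called 41 members (33.9%) against 5.96% of all probe sets. With all 16 arrays in the fit it called 3 members (2.48%), against 2.27% of all probe sets.

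The 1 probe set was Ta.14797.1.S1_at (limma adjusted p = 0.0429). It read 9.50 and 9.28 in SB15, 8.08 and 8.13 in SB33, 9.45 and 9.44 in SB53, 8.30 and 8.63 in SB138, 8.91 and 8.68 in SB146 and 8.77 and 9.10 in SB189. SB53 and SB15 were high, SB33 and SB138 low. SB165 read 10.08 and 9.83 and SB80 7.66 and 7.43. The call was lost when any 1 array of SB15, SB33 or SB53 was left out, with adjusted p between 0.0589 and 0.102, with a trended prior (0.0542) and with the replicate number as a block (0.102).

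Each of the 6 lines was also compared with the mean of the other 5. SB189 differed in 2 members, both lower in SB189, which is 1.65% of the members, against 0.537% of all probe sets and 0.995% of bright ones. Ta.847.1.S1_x_at read 6.83 and 7.10 in SB189, and its other 10 arrays lay between 7.53 and 7.89. That made a log2 difference of -0.74 (SE 0.0874, limma adjusted p = 0.0183). Ta.3228.1.S1_a_at read 9.68 and 10.20 in SB189, and its other 10 arrays lay between 10.86 and 11.28, a difference of -1.15 (SE 0.177, limma adjusted p = 0.0494). In both probe sets SB189 stood apart from the other 5 lines and next to SB80, which read 6.39 and 6.38 in Ta.847.1.S1_x_at and 9.23 and 9.38 in Ta.3228.1.S1_a_at. The call on Ta.3228.1.S1_a_at was lost without any 1 array of SB53 or SB146 and without SB189 replicate 2, where the difference was -0.89, with a trended prior (limma adjusted p = 0.0573) and with the replicate number as a block (limma adjusted p = 0.101). The call on Ta.847.1.S1_x_at was lost after spike subtraction (-0.48, limma adjusted p = 0.296).

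SB15, SB33, SB53, SB138 and SB146 each had 0 members called by limma, while 0.638% of all probe sets were called higher or lower in SB15, 0.412% in SB33, 0.563% in SB53, 0.717% in SB138 and 0.633% in SB146. At an unadjusted p under 0.05, 14 members differed in SB33, which is 11.6% of the members against 9.30% of bright probe sets. The share of members was below that of bright probe sets in the other lines. It was 1.65% (2 members) against 12.03% in SB15, 7.44% (9) against 9.06% in SB53 and 5.79% (7) against 17.3% in SB138. In SB146 it was 11.6% (14) against 14.0%, and in SB189 5.79% (7) against 17.1%. The next members by their F p were Ta.14856.1.S1_at, Ta.8399.2.S1_at and Ta.20974.1.S1_x_at, with adjusted p of 0.0982, 0.15 and 0.285.

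The field replicates were compared next, since the rule treated both arrays of a line alike. In SB165 replicate 2 was above replicate 1 in 115 of the 121 probe sets, with a median difference of 0.62. In SB189 it was below replicate 1 in 118, in SB138 in 113, in SB53 in 105 and in SB146 in 104, with medians of -0.68, -0.61, -0.30 and -0.47. SB33, SB80 and SB15 had medians of -0.11, -0.09 and 0.03. Over all bright probe sets the median replicate difference lay between -0.06 and 0.06 in every line. The members thus moved together from array to array within lines, in either direction.

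The limma test of replicate 2 minus replicate 1 with line as a block called 0 members (lowest adjusted p = 0.847) and 0 of all probe sets (0%, lowest adjusted p = 0.13). At an unadjusted p under 0.05 there were 5 members, against 4.26% of all probe sets and 10.3% of bright ones. This test asks for 1 shift shared by all lines, and the direction differed between lines. The replicate SD of the members had a median of 0.44 in SB165, 0.43 in SB138, 0.48 in SB189, 0.34 in SB146 and 0.22 in SB53, and between 0.13 and 0.15 in SB33, SB15 and SB80. The bright probe sets had medians between 0.07 and 0.11.

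**Figure D5:**
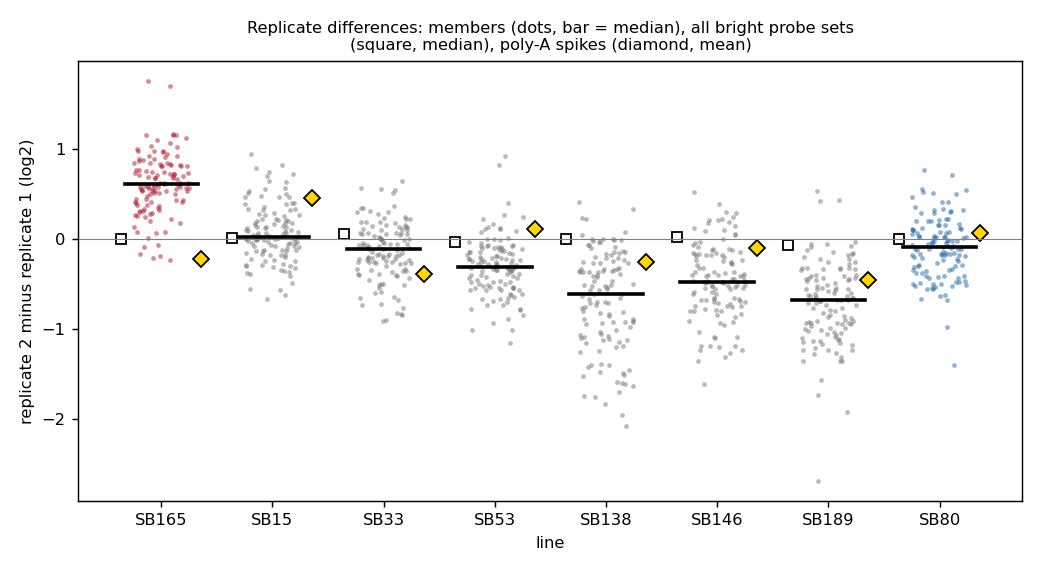
The vertical axis gives field replicate 2 minus field replicate 1 (log2) for each of the 121 probe sets (dots, with a bar at the median) by line, with a square for the median of all bright probe sets and a diamond for the mean poly-A spike level. The bar stands at 0.62 in SB165 and at -0.68 in SB189, while the squares stay between -0.06 and 0.06.

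The likeness of the members was measured in 2 ways that leave SB165 and SB80 out. Over the means of the 6 lines the mean pairwise Pearson r was 0.076, against 0.0027 over bright probe sets. Over the 6 replicate differences the mean pairwise cosine was 0.59, against 0.06 over bright probe sets. The cosine, 1 for differences in constant proportion, was chosen after the replicate differences were seen. It lay between 0.49 and 0.62 when each line was left out, and was 0.57 with 1 probe set per name stem. It was 0.79 among members with a difference of 3 or more and 0.36 among those with a difference under 2. Those groups were split by values that the rule used. The points share the 12 arrays, so these are descriptions.

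In SB165, SB53, SB138, SB146 and SB189 the replicate differences were larger in members with a larger difference between SB165 and SB80. The 11 members with a difference of 4 or more had median replicate differences of 0.87 in SB165, -0.64 in SB53, -1.64 in SB138, -1.19 in SB146 and -1.17 in SB189. The 27 members with a difference under 2 had 0.43, -0.22, -0.17, -0.16 and -0.44 in the same lines, and the 36 and 47 members between them had intermediate medians. In SB15 the medians showed no such order, at -0.23, 0.01, 0.13 and 0.03 from the largest to the smallest difference. SB33 stood at -0.64 and SB80 at -0.30 in the 11 members, and between -0.14 and 0.01 in the rest. PR5 and XIP-I, which were left out, had replicate differences of -0.74 and -0.40 (Ta.24501.1.S1_at and Ta.1200.1.S1_at) in SB138 and of -0.44 and -0.82 in SB189. Their cosine with the members' mean replicate differences was 0.95 and 0.92. This is a likeness to an average, not the pairwise cosine above, and no value over bright probe sets is given for it. On the same measure 2 other probe sets that are no members, Ta.27762.1.S2_at and Ta.82.1.S1_at, stood at 0.57 and 0.53. The other XIP-I probe set, Ta.1200.1.S1_x_at, had a cosine of 0.84, and its replicate difference in SB165 was -0.14, opposite in sign to that of most members.

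Many members have partner probe sets, which share their name stem and so the cluster of sequences they were designed on. The 121 carry 105 stems, and 15 of these hold several members, 31 in all. One stem holds Ta.23322.3.S1_at, Ta.23322.1.S1_s_at and Ta.23322.2.S1_at, with differences of 3.62, 3.51 and 3.17. A further 69 probe sets share a stem with a member without being one, and 30 of these are bright. Of the 30, SB165 was above SB80 in 26, with a median of 1.26 and a range of -0.49 to 3.41. A difference of 1.5 or more without the order was found in 12 of the 30, and another 8 lay within 0.5 of 0. Over all bright probe sets the median was 0.01, and 1.62% had a difference of 1.5 or more.

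The stems with the most bright partners show both kinds. Ta.10774.1.A1_x_at differed by 2.48, and its partners Ta.10774.2.A1_at, Ta.10774.2.A1_x_at and Ta.10774.2.A1_s_at by 2.15, 2.17 and 0.34. Ta.810.1.S1_at differed by 2.42, and its partners Ta.810.2.S1_a_at, Ta.810.3.S1_a_at and Ta.810.3.S1_x_at by 1.14, 1.25 and 0.78. Ta.4678.1.S1_at and Ta.4678.1.S1_x_at differed by 3.09 and 2.53, their partners by 1.28 and 1.43. In these stems each partner was on the same side as the member. Ta.13371.1.S1_at differed by 2.34 and its partners by 2.30 and 2.10, Ta.11087.2.S1_at by 1.78 and its partners by 1.38 and 1.73. Ta.25522.1.S1_at differed by 1.75 while its partners stood at -0.21 and 0.22.

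The members hold fewer probe sets of the a kind, which bind several transcripts of a gene, 1.65% against 11.5% of bright probe sets. They hold more of the x kind, 22.3% against 16.3%. Probe sets with a plain name were 71.1% of the members and 65.4% of bright ones. These shares are a description, since the members are not independent of each other.

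The poly-A spike controls moved in the same direction as the members, and their part in the result was not tested. These are bacterial transcripts that are usually added to each RNA sample in fixed amounts before labelling. The mean of the 24 spike probe sets was 10.07 ± 0.16 in SB165 and 8.78 ± 0.05 in SB80 (SD, n = 2), a difference of 1.29, and the 6 other lines lay between 9.27 and 9.74. Of the 24 spike probe sets, 19 had both SB165 arrays above and both SB80 arrays below all others. The hybridisation controls differed by 0.48, and the negative controls averaged 2.26. The 3′ minus middle signal, a measure of RNA length, was read from 4 control genes. For sucrose synthase it was 2.75 ± 0.09 in SB165 and 2.43 ± 0.03 in SB80, and 2.25 to 2.62 in the 6 others. For actin it was 0.17 ± 0.01 in SB165 and -0.11 ± 0.15 in SB80, and 0.02 to 0.37 in the 6 others. For EF1a it was -3.35 in SB165 and -3.50 in SB80, and for GAPDH 0.0010 and 0.0020, with the SB165 value of both within the range of the 6 others. The 18S rRNA signal was 11.06 ± 1.45 in SB165 and 9.32 ± 1.00 in SB80, and 6.85 to 10.05 in the 6 others.

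When the spike level of each array was subtracted from it, 6 of the 121 probe sets still met the rule: Ta.21281.1.S1_at, Ta.22615.1.S1_at, Ta.23322.2.S1_at, Ta.28233.1.S1_at, Ta.5385.1.S1_at and TaAffx.108556.1.S1_at. SB165 stayed above all other arrays in 53 members, and SB80 below all others in 18. A difference of 1.5 or more between the 2 line means was kept by 56 members. The SB165 mean stayed above the SB80 mean in all 121, which the rule fixed, since its limit of 1.5 exceeds the spike difference of 1.29. The same subtraction moved the median SB165 minus SB80 of all bright probe sets from 0.01 to -1.29. Between field replicates the spikes and the members moved in opposite directions in SB165, SB53 and SB80 and in the same direction in the other lines. In SB165 the spikes were 0.22 lower in replicate 2 while the members were 0.62 higher. In SB15 the spikes were 0.46 higher and the members 0.03 higher, and in SB189 the spikes were 0.45 lower and the members 0.68 lower.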

How the data were processed

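Total RNA of 16 flag leaf samples was labelled with biotin and hybridised to Affymetrix wheat arrays. The deposited table holds log2 values. The submitters' processing notes list RMA with GCRMA, without versions, and do not state which made the table. Both correct background, normalize between arrays and summarise probes. Values run from a floor of 2.25, where 37.8% lie, to 16.67. Of 61290 rows, 175 controls were left out.

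Lines were compared in R 4.3.3 by linear models and moderated tests (limma 3.58.1, Benjamini-Hochberg over all probe sets, threshold 0.05). The 12 arrays of the 6 lines gave 6 residual degrees of freedom and a prior of 0.37. The named probe sets follow a written rule: all members paired with a gene, the 6 with the largest difference, the 6 with the lowest F p, the largest call of each line, 3 on either side of the limit, and up to 6 with the most bright partners. The members and lists were chosen with earlier results of these data known. The labels' replicates are 2 field replicates, and p-values measure the spread between them. Arrays give no counts, so their number limits the precision.

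The alternatives were quantile or median scaling, spike subtraction, other limits, other fits, a replicate block and leaving out each array. To check for pairing, deviations of replicate 2 from its line mean were correlated between lines over bright probe sets. The correlation was over 0.1 in 16 of 28 pairs of lines (median 0.12, range -0.21 to 0.37). This does not settle whether same-numbered arrays are paired, and the labels do not say. On simulated data (61115 probe sets), changes of 0.5, 1, 2 and 3 log2 were put into SB189. The comparison of SB189 with the other 5 lines found 28%, 66%, 92% and 96% of them, with 16 false calls. The F test for a line effect found 4%, 42%, 68% and 86%, with 7 false calls. The changed probe sets were drawn at random from bright ones, so these shares were not measured for the members, whose replicate SD was larger. Gene order and chromosomes were read from the RefSeq gene table (IWGSC CS RefSeq v2.1), and no sequence was used here.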

Additional observations from a re-analysis of the deposited data

Results flagged for a closer look

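The poly-A spike controls, which were left out of the probe sets tested and used only for the alternative scaling, differed by 1.29 between SB165 and SB80 in the same direction as the members. The median replicate 2 minus replicate 1 of the members was 0.62 in SB165 and -0.68 in SB189, opposite signs in 115 and 118 of the 121 probe sets. The difference between the 2 lines was not tested.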

How the results depend on the processing

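The 121 probe sets became 6 after subtraction of the poly-A spike level, while 56 of them kept a difference of 1.5 or more. They numbered 110 with quantile normalization (109 shared) and 109 with median scaling (108 shared), and between 117 and 179 when each array was left out, with 179 without SB165 replicate 1 and 170 without SB80 replicate 1. The number of members with a line effect was 1. It was 3 with all 16 arrays (2.48% against 2.27% of all probe sets). When only bright probe sets were tested it was 4 (3.31%), against 5.35% of those tested. It was 41 after spike subtraction (33.9% against 5.96% of all probe sets). With the trend prior or the replicate block it was 0, against 1.22% and 1.14% of all probe sets. Over all probe sets the 981 line effects became 3641 after spike subtraction and 1658 to 2714 when an array was left out. With all 16 arrays 1 member differed in each of SB33, SB53 and SB146. With bright probe sets only, 1 differed in SB15, SB33 and SB146 and 3 in SB53, and with quantile normalization 1 in SB33. After spike subtraction 2 differed in SB15, 9 in SB33, 11 in SB53, 11 in SB146 and 20 in SB189. Of the 20, 18 were higher in SB189. These counts of members in single lines have no share of all probe sets beside them, which is not given under these alternatives. When an array was left out the counts were 0 to 1 in SB15, SB33 and SB138, 0 to 2 in SB53 and SB146 and 1 to 6 in SB189. SB189 had 1 call, Ta.847.1.S1_x_at, with the trend prior and 1, the same probe set, with the replicate block (Ta.3228.1.S1_a_at lost its call under both), which is a block on numbers not shown to pair the arrays: 10 of 16 arrays correlated best with an array of their own number. Ta.847.1.S1_x_at had a difference of -0.48 after spike subtraction (adjusted p = 0.296), and Ta.3228.1.S1_a_at ranged over -1.41 to -0.89 when an array was left out. The cause of these changes was not tested. Between field replicates 0 members were called under all 11 alternatives. With 2 arrays per line, differences of 0.5 log2 were mostly missed.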

Other observations

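LOC543287 (Ta.82.1.S1_at), which is no member because it lay under 3.5 on some arrays, read 10.39 and 9.08 in SB165 and 2.84 and 2.99 in SB80, a difference of 6.82. The other 12 arrays lay at 2.55, 3.08 and 5.46 (lowest, median and highest), so SB80 was not below all of them.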
